A study of Arabidopsis thaliana with 12 samples.

Results

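The transcriptome of wild-type *Arabidopsis thaliana* seedlings (Col-0) after 8 days of simulated shade was compared with that of seedlings left in white light. The comparison rests on 4 of the 12 libraries of the study, 2 from seedlings under white light enriched in far-red (WL+FR, replicates 3 and 4) and 2 from seedlings under white light (WL, replicates 1 and 2), and on the 18789 of 32824 listed genes that were above 0 in all 12 libraries and had a mean of at least 0.5 TPM (the share of a gene among all transcripts of a library, corrected for length and scaled to a sum of 1e6). All seedlings grew under continuous light, the first 2 days in WL, and were 10 days old at harvest. The red to far-red ratio (R:FR) was 0.2 in WL+FR, against 7.7 in WL. The other 8 libraries came from *rev-5*, which carries an amino acid substitution in the transcription factor REVOLUTA, and from plants labelled *wox4*, again with 2 biological replicates per light. The paper describes *wox4* as an insertion line. *WOX4* had 112 to 149 TPM in the libraries labelled *wox4*, against under 4 TPM in Col-0. A value per gene does not tell an intact transcript from an altered one, and the cause of this excess was not tested. The label is therefore used as given.

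Plants sense a neighbour as a loss of red relative to far-red light, which converts the photoreceptor phytochrome B to its inactive form. Phytochrome-interacting factors (PIFs), a group of basic helix-loop-helix (bHLH) transcription factors, then remain stable and active on promoters that carry a G-box (CACGTG) or the related element CACATG, and raise auxin synthesis and growth genes. In seedlings the response is known for long hypocotyls and petioles, pale leaves, early flowering and a changed balance between growth and defence.

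The bounds deposited with each value correspond to a depth of 11.67 to 12.92 M fragments (M, 1e6) in the 4 Col-0 libraries, if they hold counting error only. Replicates correlated with a Pearson coefficient of 0.9908 in WL+FR and 0.9915 in WL over the tested genes, and libraries from different lights with 0.977 to 0.979. The 10 most abundant genes took 14.33% and 13.78% of all FPKM in WL+FR, against 18.15% and 18.65% in WL. As TPM are shares of a library, this bears on all other genes. The median gene had a log2 fold change of 0.08, and −0.03 when all libraries were given one distribution by quantile normalization. *REV* had 6.0 and 6.96 TPM in WL+FR and 6.37 and 6.16 TPM in WL. In whole seedlings, fewer cells of a type and less RNA per cell cannot be told apart.

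More genes were higher than lower in shade. Of the 18789 genes, 295 (1.57%) were higher and 59 (0.314%) were lower in WL+FR when a log2 fold change beyond 1 in either direction and an adjusted p under 0.01 (limma, Benjamini-Hochberg) were both required. At the wider threshold, an adjusted p under 0.05 whatever the size of the change, 2839 genes (15.1%) were higher and 930 (4.95%) lower. These shares are the background for every count of list members at that threshold in TPM. Quantile normalization left 207 higher and 81 lower genes at the narrower threshold and 1718 higher and 1607 lower at the wider one, so the excess of rises at the wider threshold depended on the scaling. Of the 295 genes, 206 were also called higher after quantile normalization, as were all 59 lower genes. The higher genes were of modest abundance, with a median of 18.4 TPM in WL+FR against 6.44 TPM in WL, and the lower genes had a median of 5.69 TPM in WL+FR against 13.4 TPM in WL. With 2 libraries per group an exact permutation test of one gene cannot go below a two-sided p of 0.333, so all calls come from limma, which shares the spread across genes and groups.

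**Figure D1:**
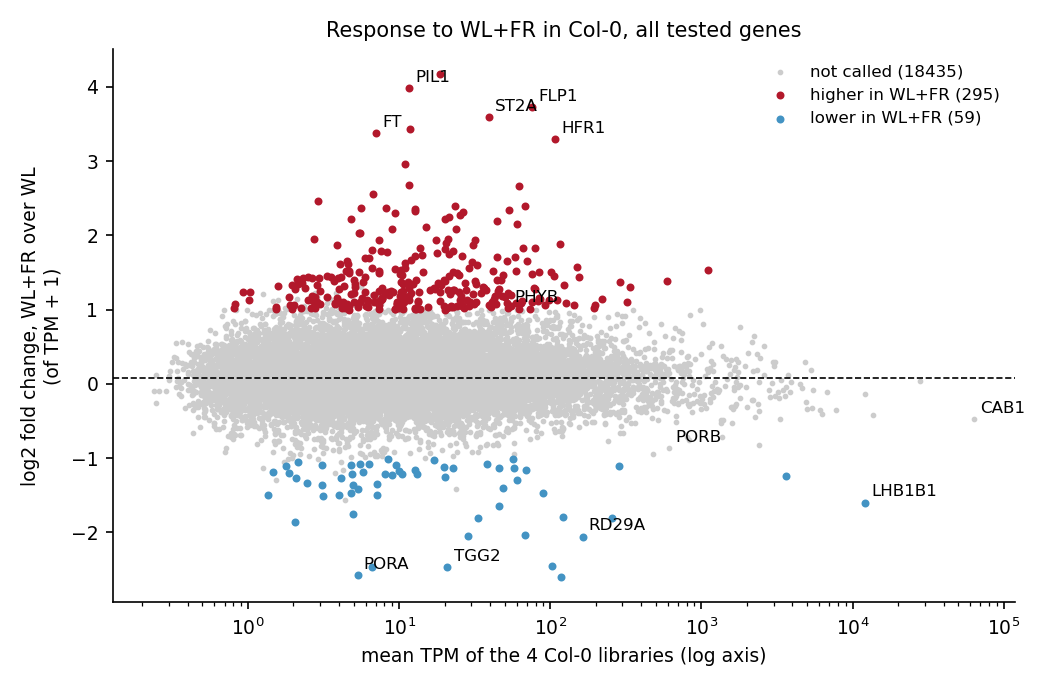
Log2 fold change of WL+FR over WL in Col-0 (vertical axis, of TPM + 1) against the mean TPM of the 4 Col-0 libraries (log axis) for each tested gene. The 295 higher genes in red reach a log2 fold change of 4.17, the 59 lower genes in blue reach −2.60, and the dashed line is the median of all genes at 0.08.

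The strongest rise was that of *AT1G80130*, a gene for a tetratricopeptide repeat protein. It had 35.1 and 37.0 TPM in WL+FR, against 1.38 and 0.781 TPM in WL (log2 fold change 4.17, standard error 0.20, adjusted p = 3.39e-08). *PIL1* (AT2G46970), which encodes a bHLH protein related to the PIFs and is a classic early marker of shade, had 22.4 and 22.9 TPM in WL+FR and 0.765 and 0.273 TPM in WL (3.98, standard error 0.24, adjusted p = 3.02e-07). Both genes were nearly silent in WL, and the lowest WL value of *PIL1* rested on about 1 fragment. *HFR1* (AT1G02340), whose product is an atypical bHLH protein that binds PIFs and holds them off DNA, was far more abundant, with 185 and 208 TPM in WL+FR against 19.0 and 19.1 TPM in WL (3.3, standard error 0.07, adjusted p = 1.16e-10). No WL+FR value of these 3 genes came near a WL value, and groups that do not overlap were part of the rule by which the leading genes were chosen.

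Flowering genes were among the largest rises. *FT*, the mobile flowering signal made in leaves, had 14.1 and 13.2 TPM in WL+FR, against 0.168 and 0.713 TPM in WL (3.37, standard error 0.19, adjusted p = 1.24e-07). *FLP1* (AT4G31380), annotated as a flowering-promoting factor-like protein, had 131 and 152 TPM in WL+FR but 5.86 and 15.7 TPM in WL (3.73, standard error 0.28, adjusted p = 1.47e-06). The WL replicates of *FLP1* differed widely. For both genes every WL+FR value lay above every WL value, which was part of the rule by which the leading genes were chosen. *SOC1*, a flowering integrator downstream of *FT*, rose more modestly (0.83, adjusted p = 0.00039). Of the 17 flowering genes listed, 7 could be tested, and the 4 beside *FT*, *FLP1* and *SOC1* did not pass.

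*ST2A* (AT5G07010), a sulfotransferase that acts on hydroxylated jasmonate, had 73.5 and 72.8 TPM in WL+FR against 5.11 and 5.20 TPM in WL (3.59, standard error 0.13, adjusted p = 3.81e-09). *CKX5* (AT1G75450), a cytokinin oxidase, which breaks this hormone down, had 21.8 and 19.8 TPM in WL+FR and 2.22 and 2.61 TPM in WL (2.67, standard error 0.18, adjusted p = 7.07e-07). Replicates of these genes lay close together and the groups far apart. The remaining genes of the 12 with the largest rises were *AT5G44440* (3.43), which encodes an FAD-binding berberine family protein, *RTFL18* (2.97), which encodes a small ROTUNDIFOLIA-like peptide, *SAUR22* (2.67), *PIP2* (AT4G37290, 2.56) and *AT3G02670* (2.47), a gene for a glycine-rich protein. *RTFL18*, *PIP2* and *AT3G02670* rested on at most 52 fragments in any Col-0 library.

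**Figure D2:**
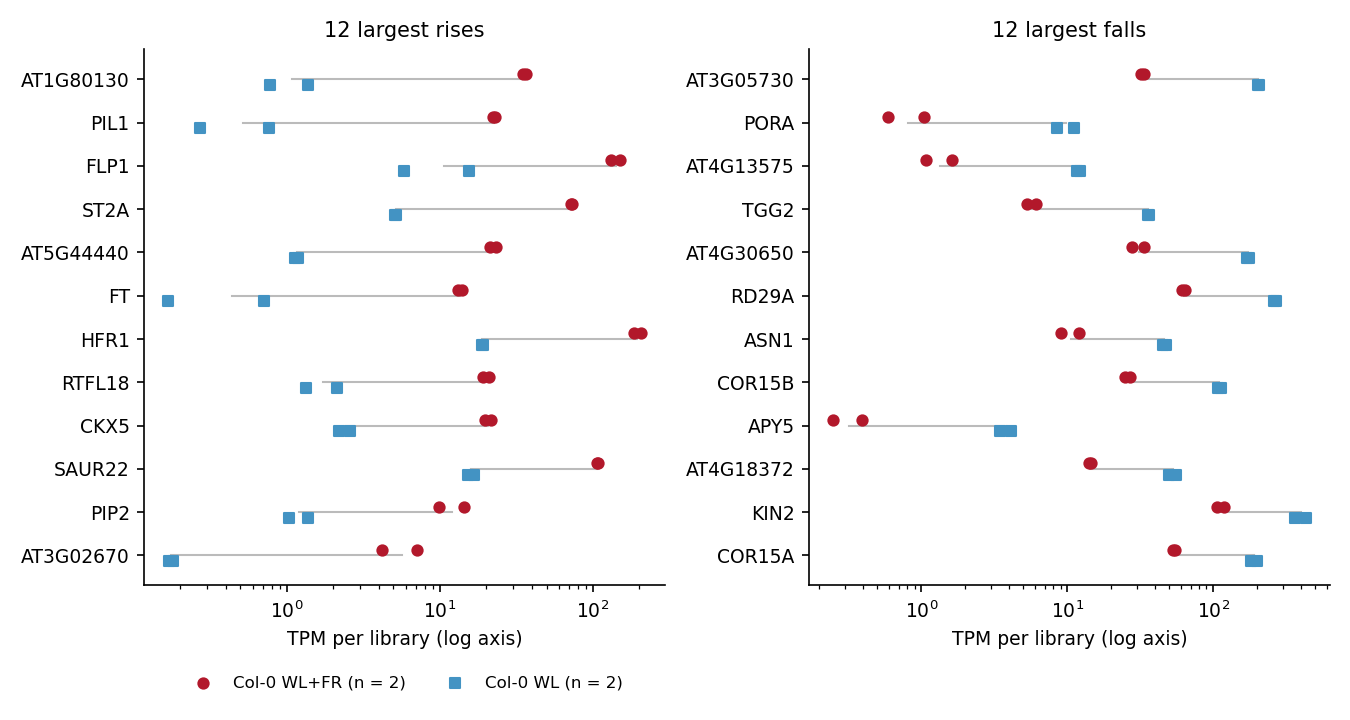
TPM in each Col-0 library (log axis) of the 12 protein-coding genes with the largest rise (left) and the largest fall (right), WL+FR as red circles and WL as blue squares, with a grey line between the group means. All were chosen among called genes whose groups do not overlap, and *PIL1*, *FT* and *AT3G02670* lie under 1 TPM in WL.

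Since PIFs bind CACGTG and CACATG, the upstream sequences of the 6 most strongly raised marker genes of low R:FR were read from the TAIR10.1 assembly, searching both strands. Neither motif occurred in the 250 bases next to the annotated starts of *PIL1*, *ST2A*, *HFR1*, *CKX5*, *IAA29* and *ATHB2*, a window in which 17.7% of 18360 protein-coding genes had one or the other. In 1500 bases, a window chosen after the shorter one had been read, *PIL1* had 3, *HFR1* 2 and *CKX5* 4 copies of CACGTG, and *HFR1*, *ST2A* and *IAA29* had 1 copy of CACATG each, whereas *ATHB2* had neither. The copies of CACGTG nearest to each start are shown to place the motif within its surroundings, 5′ to 3′ on the strand of the gene, with every motif in capitals.
*PIL1* (chr2:19298919-19298978, minus strand): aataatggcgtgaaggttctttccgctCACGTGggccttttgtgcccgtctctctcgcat
*HFR1* (chr1:468848-468907, minus strand): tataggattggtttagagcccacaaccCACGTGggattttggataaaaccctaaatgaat
*CKX5* (chr1:28318991-28319050, minus strand): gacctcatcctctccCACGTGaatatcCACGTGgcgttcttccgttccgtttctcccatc
The motif began 1093 bases upstream of the start in *PIL1*, 1000 bases in *HFR1* and 648 bases in *CKX5*, where a second copy lies in the same stretch. Within 1500 bases, CACGTG was present in 14 of the 22 marker genes of low R:FR (63.6%), in 25.9% of the 290 higher and 25.5% of the 55 lower protein-coding genes and in 21.0% of all 18359 genes with such a window. CACATG was found in 63.6%, 59.3%, 52.7% and 52.0% of the same sets. In the 250 bases next to the start, one or the other motif was present in 24.1% of the higher and 27.3% of the lower genes, with no test of the difference. A match is a string of letters and not a bound site, and its absence from a window says nothing about the factor.

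The 22 marker genes of low R:FR are known markers of the response, listed with earlier results of these data known, so that their direction is not independent evidence. At the wider threshold 17 were higher and none lower, 5 did not pass, and 10 passed the narrower threshold. Their median log2 fold change was 0.94, against 0.08 for all tested genes. *ATHB2*, a class II homeodomain leucine zipper gene that serves as the standard reporter of shade, had 36.6 and 41.3 TPM in WL+FR against 9.30 and 7.57 TPM in WL (2.09, standard error 0.12, adjusted p = 2.55e-07). Its relative *HAT2* rose by 1.13 (adjusted p = 2.33e-06) and *HAT1* by 0.69 (adjusted p = 0.00015). *HAT3* had 18.9 and 20.6 TPM in WL+FR against 22.3 and 20.0 TPM in WL, with overlapping groups and no call (−0.09, adjusted p = 0.67), and *ATHB4* did not pass either (0.36, adjusted p = 0.22).

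Among 35 photoreceptor and light signalling genes 13 were higher and none lower at the wider threshold, with a median of 0.26. Of all tested genes 15.1% were higher and 4.95% lower. After quantile normalization 11 of the 35 genes were higher and 2 lower. *PHYB*, which encodes phytochrome B, had 70.4 and 72.1 TPM in WL+FR, against 35.2 and 34.0 TPM in WL (1.02, standard error 0.06, adjusted p = 2.93e-07), so the photoreceptor that shade inactivates was more abundant as a transcript in shade. The change lay at the edge of the fold threshold and dropped under it with FPKM, with quantile normalization and without WL replicate 2. The B-box genes *BBX29* (1.18) and *BBX25* (1.04), which belong to a family of light-responsive zinc finger proteins, passed the narrower threshold as well. Of the PIF genes, *PIF5* was higher (0.47, adjusted p = 0.00021). *PIF4* had 56.1 and 61.9 TPM in WL+FR and 64.6 and 63.0 TPM in WL (−0.11, adjusted p = 0.26), *PIF7* had a log2 fold change of 0.24 (adjusted p = 0.35), *PIF3* one of 0.04 (adjusted p = 0.85) and *PIF1* one of −0.06 (adjusted p = 0.75). None of these 4 passed in TPM, while *PIF4* passed as lower after quantile normalization (adjusted p = 0.020).

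**Figure D3:**
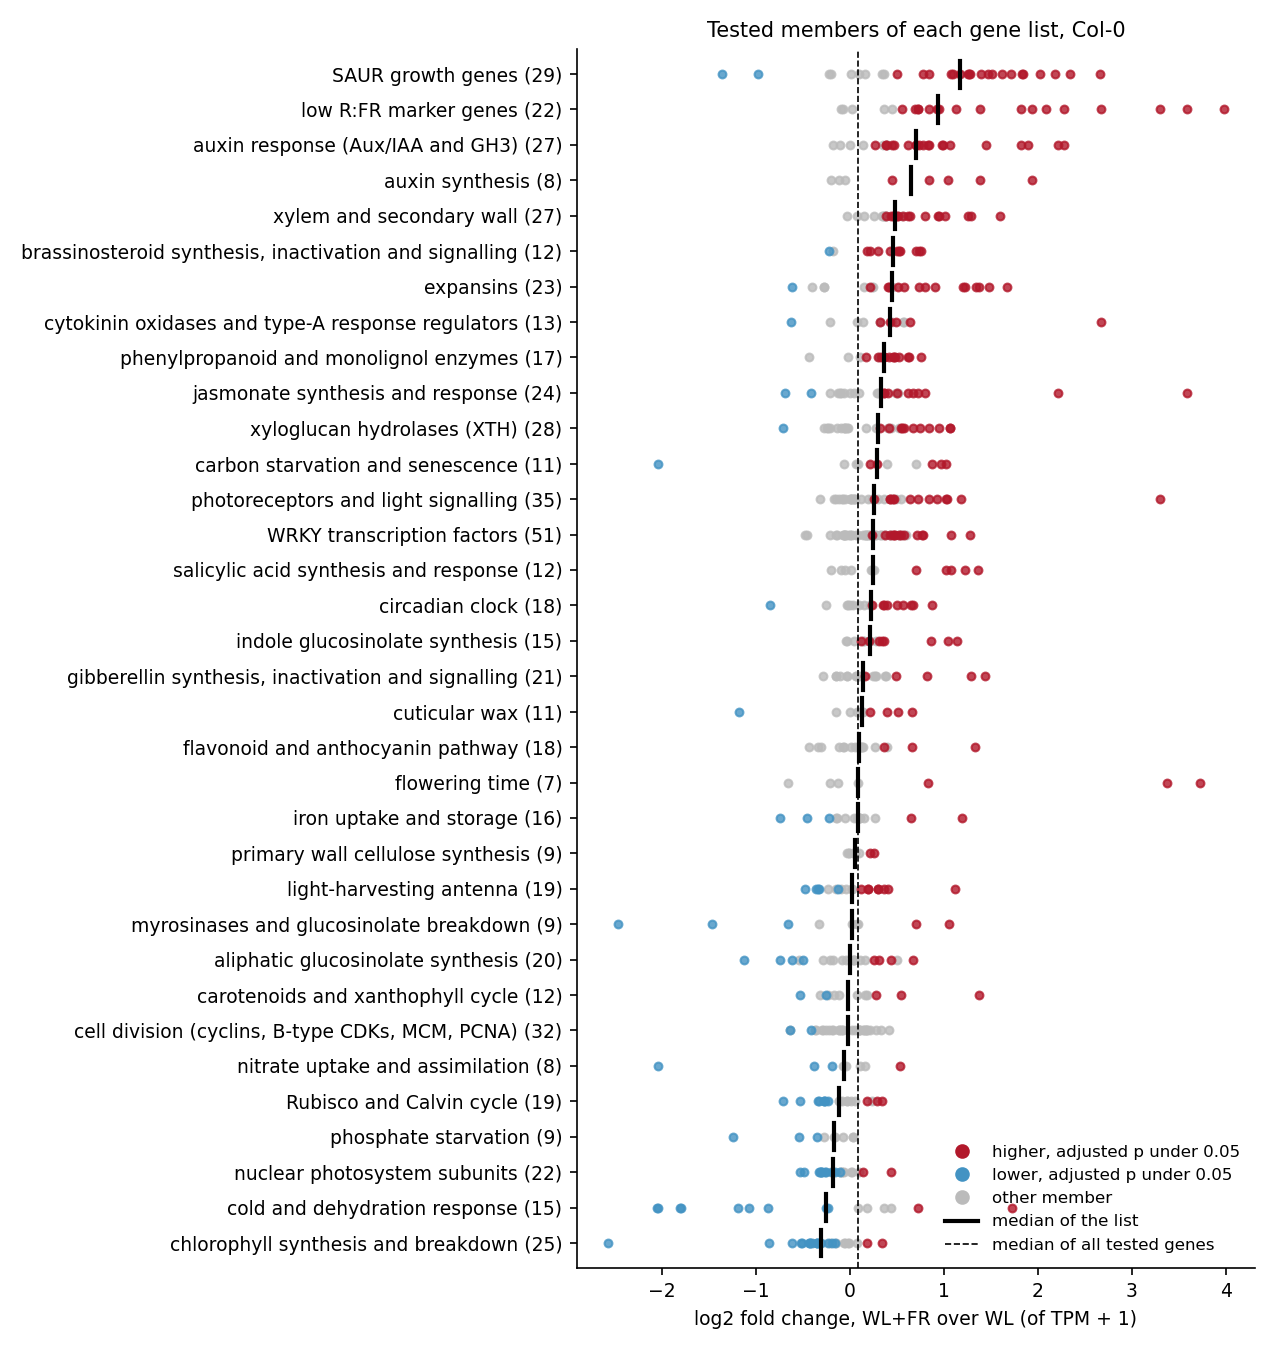
Log2 fold change of WL+FR over WL for every tested member of 34 gene lists, ordered by the list median (black bar), with members at an adjusted p under 0.05 in red (higher) or blue (lower) and the number of tested members in brackets. SAUR genes stand at the top with a median of 1.17, chlorophyll genes at the bottom with −0.30, and the dashed line marks 0.08, the median of all tested genes.

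Genes of auxin synthesis were higher in part. Of 8 tested genes of auxin synthesis 5 were higher, all of them YUCCA genes, which encode the flavin monooxygenases of the last step. *YUC8* had 27.5 and 28.8 TPM in WL+FR against 6.07 and 7.21 TPM in WL (1.94, standard error 0.11, adjusted p = 1.26e-07). *YUC9* (1.38), *YUC2* (1.05), *YUC3* (0.84) and *YUC6* (0.45) followed, the last not passing after quantile normalization (adjusted p = 0.10). *TAA1*, the aminotransferase of the preceding step, had 4.89 and 5.96 TPM in WL+FR and 6.20 and 5.64 TPM in WL, and *YUC5* had 0.817 and 1.23 TPM in WL+FR and 1.53 and 1.09 TPM in WL. The groups overlapped for both, and neither was called (adjusted p = 0.80 for *TAA1* and 0.61 for *YUC5*).

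The early auxin response was higher in most members. Of 27 tested *Aux/IAA* and *GH3* genes, which encode repressors of the auxin response and enzymes that conjugate auxin, 20 were higher and none lower, with a median of 0.70. *IAA29* had 41.8 and 43.2 TPM in WL+FR against 10.2 and 6.24 TPM in WL (2.27, standard error 0.17, adjusted p = 1.91e-06), and *IAA19* had 32.6 and 31.2 TPM in WL+FR against 8.36 and 8.33 TPM in WL (1.82, standard error 0.11, adjusted p = 3.55e-07). *IAA6* (2.22) and *IAA1* (1.90) completed the leading members. The largest median of any list, 1.17, belonged to the SAUR genes, small auxin-induced genes whose products keep the plasma membrane proton pump active and so promote cell expansion. Of 29 tested SAUR genes 20 were higher and 2 lower, and 17 and 1 passed the narrower threshold. AT5G01830, listed through the RefSeq symbol *SAUR21* but annotated as an ARM repeat protein, is counted among the 29 and did not pass (0.36, adjusted p = 0.096). *SAUR22* had 106 and 108 TPM in WL+FR against 15.3 and 16.9 TPM in WL (2.67, standard error 0.09, adjusted p = 1.48e-09). *SAUR19* to *SAUR24* are near-identical neighbours on chromosome 5 and may share reads, so their single values are uncertain. *SAUR71*, in contrast, had 1.74 and 3.07 TPM in WL+FR against 8.0 and 7.13 TPM in WL (−1.36, adjusted p = 0.0016).

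Of 21 gibberellin genes 5 were higher and none lower (4 and 0 after quantile normalization), with a median of 0.14 against 0.08 for all tested genes, of which 15.1% were higher, so the list as a whole lay near the background. The 5 were *GA20OX1* (1.44, adjusted p = 0.00070) and *GA20OX2* (1.29, adjusted p = 0.0012), which encode oxidases of the late steps of synthesis, *GA2OX6* (0.82), which inactivates the hormone, and the DELLA repressors *RGL1* (0.49) and *RGA* (0.16). Of these, *RGA* did not pass after quantile normalization (adjusted p = 0.65). Of 12 brassinosteroid genes 10 were higher and 1 lower (7 and 1 after quantile normalization), with a median of 0.46 and none past the fold threshold. *BAS1* (0.75) and *CYP72C1* (0.54) inactivate brassinosteroids, whereas *BR6OX2* (0.74) and *BR6OX1* (0.70) make them, and all 4 were higher. In the cytokinin list 5 of 13 genes were higher and 1 lower (2 and 1 after quantile normalization), and only *CKX5* passed the fold threshold. The next largest changes were *ARR9* (0.64) and *ARR5* (0.49), which encode response regulators induced by cytokinin, and *CKX4* at −0.63 (adjusted p = 0.013).

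Genes for wall loosening were raised in part, beside 15.1% higher and 4.95% lower among all tested genes. Of 23 tested expansins 14 were higher and 1 lower, with a median of 0.45. *ATEXPA1* had 409 and 426 TPM in WL+FR against 158 and 163 TPM in WL (1.37, standard error 0.04, adjusted p = 9.8e-10). *EXPA4* (1.48), *EXPA8* (1.34) and *EXLB1* (1.67) rose likewise. Of 28 tested *XTH* genes, whose products cut and rejoin xyloglucan chains, 11 were higher and 1 lower (8 and 3 after quantile normalization), led by *ATXTH17* (1.07) and *XTH24* (1.06). The 9 genes of primary wall cellulose synthesis had a median of 0.06, and only *CTL1* (0.26) and *KOR1* (0.22) passed.

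Of 27 tested genes of xylem and the secondary wall 16 were higher and none lower (11 and 0 after quantile normalization). Their median was 0.48, and of all tested genes 15.1% were higher and 4.95% lower. *TED7*, named for tracheary element differentiation, had 60.8 and 39.2 TPM in WL+FR against 13.1 and 18.1 TPM in WL (1.60, standard error 0.19, adjusted p = 8.42e-05). *LAC11*, a laccase that polymerizes lignin, had 31.5 and 18.1 TPM in WL+FR against 10.06 and 8.34 TPM in WL (1.29), and *MC9*, a metacaspase of xylem cell death, had 38.5 and 27.1 TPM in WL+FR against 12.9 and 12.9 TPM in WL (1.26). In these genes, and in *TED6* (1.01), WL+FR replicate 3 lay above replicate 4, though both lay above WL. The phenylpropanoid and monolignol enzymes, which supply lignin, changed less in size but in most members. Of 17 genes 13 were higher and none lower (11 and 1 after quantile normalization), with a median of 0.36 and no gene past the fold threshold, *PAL4* (0.75) and *CAD5* (0.63) being the largest.

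Cold-regulated genes made up 4 of the 12 largest falls. *RD29A* (AT5G52310), the standard reporter of cold and dehydration, had 61.4 and 64.1 TPM in WL+FR, against 269 and 259 TPM in WL (−2.06, standard error 0.05, adjusted p = 1.25e-10). *COR15B* had 25.1 and 27.1 TPM in WL+FR against 113 and 108 TPM in WL (−2.04), *COR15A* had 52.7 and 55.2 TPM in WL+FR against 182 and 199 TPM in WL (−1.80), and *KIN2* had 118 and 107 TPM in WL+FR against 363 and 433 TPM in WL (−1.81). The COR15 proteins protect chloroplast membranes in the cold. Of their upstream regulators of the CBF family, *CBF2* had 2.92 and 3.25 TPM in WL+FR against 9.46 and 7.30 TPM in WL (−1.19). *CBF3* had 4.0 and 3.45 TPM in WL+FR against 9.08 and 8.77 TPM in WL (−1.07). *CBF1*, also tested, was not among the 6 genes of the cold list lower past the narrower threshold. The log2 fold changes of the tested genes of that list ranged from −2.06 to 1.72. Of the 15 tested genes of the cold and dehydration list 9 were lower and 2 higher, with 6 lower and 1 higher past the narrower threshold, and their summed level was 1038 and 1053 TPM in WL+FR against 1838 and 1889 TPM in WL. *AT4G30650*, annotated as a low temperature and salt responsive protein but not in the list, had 33.8 and 28.0 TPM in WL+FR against 170 and 176 TPM in WL (−2.46).

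CBF proteins bind the element CCGAC. It was searched after the values had been seen, on both strands of the 250 bases upstream, and was present in 12.8% of all promoters, 16.4% of the 55 lower and 15.9% of the 290 higher protein-coding genes, and 4 of 15 genes of the cold list (26.7%). *RD29A* had 3 copies, shown in capitals in its upstream sequence because this is the fallen gene with the most copies among those read. *COR15A* had 2, and *COR15B*, *KIN2*, *CBF2* and *CBF3* had none in this window.
*RD29A* (chr5:21240467-21240716, plus strand): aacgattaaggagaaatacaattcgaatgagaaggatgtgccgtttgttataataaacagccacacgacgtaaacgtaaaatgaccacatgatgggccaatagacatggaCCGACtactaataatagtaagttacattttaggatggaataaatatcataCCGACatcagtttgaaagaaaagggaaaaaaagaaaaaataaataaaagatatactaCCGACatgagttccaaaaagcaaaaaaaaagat

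The remaining large falls belonged to several functions. The largest was *AT3G05730*, a gene for a defensin-like protein, with 33.3 and 32.2 TPM in WL+FR against 204 and 205 TPM in WL (−2.60, standard error 0.08, adjusted p = 1.11e-09). *ASN1*, a glutamine-dependent asparagine synthase known to be induced in the dark, had 9.09 and 11.97 TPM in WL+FR against 45.1 and 47.2 TPM in WL (−2.04). *APY5* (−1.86), which encodes a nucleoside phosphatase, and *AT4G13575* (−2.47), which encodes an uncharacterized protein, were weakly expressed in WL+FR, at 0.248 to 1.62 TPM. *AT4G18372* (−1.81) overlaps *AT4G18370*, and strand was not stated for the counting. It lost its call when any one Col-0 library was left out and had the opposite sign in *rev-5* (0.57), so its value is uncertain.

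Most genes of the chlorophyll list were lower. *PORA*, one of the light-dependent protochlorophyllide oxidoreductases, had 1.03 and 0.590 TPM in WL+FR against 11.1 and 8.54 TPM in WL (−2.58, standard error 0.19, adjusted p = 1.24e-06). *PORB*, the abundant form, had 439 and 429 TPM in WL+FR against 808 and 776 TPM in WL (−0.87, standard error 0.03, adjusted p = 7.66e-09). Both groups were clearly apart, and *PORC* was lower too (−0.41). Of the 25 genes of chlorophyll synthesis and breakdown 16 were lower and 2 higher (19 and 1 after quantile normalization), with a median of −0.30 against 0.08 for all tested genes. *PPOX* (−0.61) and *HEME2* (−0.52), of the shared tetrapyrrole steps, were the next largest, *PPOX* being uncertain since it overlaps *AT4G01700*. *HEMA1*, which feeds the whole pathway, had 183 and 188 TPM in WL+FR and 187 and 187 TPM in WL and did not pass, and *GUN5*, a subunit of magnesium chelatase, was slightly higher (0.19, adjusted p = 0.021).

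The light-harvesting antenna did not move as one. Of 19 tested antenna genes 8 were higher and 5 lower (9 and 5 after quantile normalization), with a median of 0.02, although their sum was 107700 and 104800 TPM in WL+FR against 124300 and 128600 TPM in WL. The sum followed the most abundant gene of all libraries, *CAB1*, with 54170 and 52650 TPM in WL+FR against 72480 and 76340 TPM in WL (−0.48, standard error 0.03, adjusted p = 7.91e-07). Quantile normalization sets the most abundant gene equal by construction (0.00), and it turned the smaller fall of *CAB3* (−0.13) into a rise (0.44). *LHCB2.1*, from the mobile part of the antenna, had 2723 and 2625 TPM in WL+FR against 2026 and 2000 TPM in WL (0.41, standard error 0.03, adjusted p = 2.05e-06), *LHCB2.4* rose by 0.37 and *LHCB4.3*, a rare minor antenna form, by 1.12. *LHB1B1* (AT2G34430), whose symbol lies outside the list and which was singled out after its values were seen, had 6147 and 5887 TPM in WL+FR against 18200 and 18290 TPM in WL (−1.60, standard error 0.03, adjusted p = 5.79e-12, and −1.16 after quantile normalization). Its neighbour *LHB1B2* (AT2G34420) had 28830 and 27400 TPM in WL+FR and 27550 and 27280 TPM in WL (0.04). *CAB1*, *CAB2*, *CAB3*, *LHB1B1* and *LHB1B2* encode nearly the same protein and may share reads, so the split between them is uncertain.

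**Figure D4:**
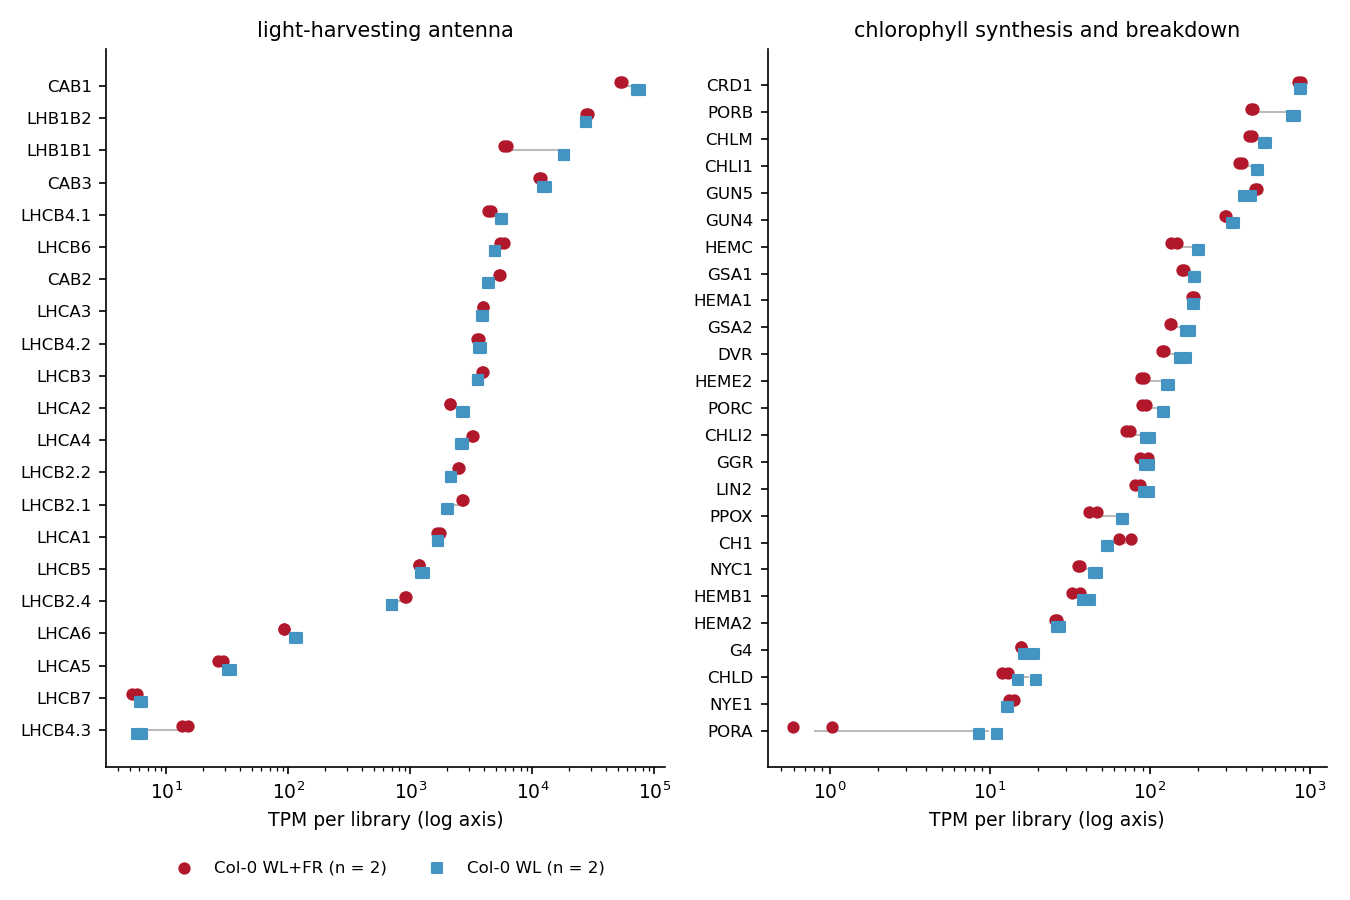
TPM in each Col-0 library (log axis) of antenna genes including *LHB1B1* and *LHB1B2* (left) and of genes of chlorophyll synthesis and breakdown (right), WL+FR as red circles and WL as blue squares, ordered by the WL mean. *LHB1B1* and *PORA* show the widest falls, whereas *LHCB4.3* at the bottom left is higher in WL+FR.

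The core of photosynthesis was slightly lower. Of 22 nuclear photosystem subunits 12 were lower and 2 higher, with a median of −0.18, among them *PSAE2* (−0.53) and *PSBQ1* (−0.49), while *PSBS*, needed to dissipate excess light, had 683 and 724 TPM in WL+FR against 521 and 518 TPM in WL (0.44, adjusted p = 1.99e-05). Of 19 genes for Rubisco and the Calvin cycle 8 were lower and 3 higher, with a median of −0.11. *CP12-2*, a regulator of the cycle, fell by 0.71 and *RBCS1B* by 0.53, but *RCA*, the activase of Rubisco, rose by 0.34. Small subunit genes of Rubisco may share reads. In the carotenoid list 3 of 12 genes were higher and 2 lower, against 15.1% and 4.95% of all tested genes, with *BETA-OHASE 2* at 1.38 and *NPQ1*, the violaxanthin de-epoxidase, at −0.53.

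Of 9 genes of glucosinolate breakdown 2 were higher and 3 lower, against 15.1% and 4.95% of all tested genes. *TGG2*, one of the main myrosinases that cleave glucosinolates, had 5.28 and 6.11 TPM in WL+FR against 35.5 and 36.4 TPM in WL (−2.47, standard error 0.15, adjusted p = 2.73e-07), and *TGG1* was lower by a smaller amount (−0.66). *ESM1*, which steers breakdown towards isothiocyanates, fell by 1.47, while the specifier protein *NSP1*, which steers it towards nitriles, had 860 and 904 TPM in WL+FR against 543 and 536 TPM in WL (0.71). Aliphatic glucosinolate synthesis had 4 of 20 genes higher and 4 lower (2 and 6 after quantile normalization). The share of higher genes in the aliphatic list thus lay near that of all tested genes. *CYP79F1*, which begins the synthesis from chain-elongated methionine, was lower (−1.13), as was its regulator *MYB29* (−0.62). Indole glucosinolate synthesis had 8 of 15 genes higher and none lower (7 and 1 after quantile normalization), with *CYP81F2* (1.14), *MYB122* (1.04) and the regulator *MYB51* (0.86) in front.

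Of 24 jasmonate genes 10 were higher and 2 lower (6 and 3 after quantile normalization). These counts and the next stand against 15.1% higher and 4.95% lower among all tested genes. *VSP2*, a storage protein induced by jasmonate, had 35.2 and 32.6 TPM in WL+FR against 7.03 and 6.01 TPM in WL (2.22, standard error 0.12, adjusted p = 1.04e-07), so it rose together with *ST2A*. Of 12 salicylic acid genes 5 were higher and none lower, with and without quantile normalization, namely *PBS3* (1.36), *CBP60G* (1.22), *WRKY70* (1.08), *FMO1* (1.02) and *PAD4* (0.70), which act in the synthesis or the signalling of salicylic acid and related immune signals. The marker genes *PR1* and *PR2* were at 0 in some library and were not tested. *PR5* and *ICS1* of the same list were tested and did not pass. Of 51 WRKY factors, a family with many immune regulators, 14 were higher and none lower (10 and 0 after quantile normalization).

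Smaller groups showed single changes. Their counts stand against 15.1% higher and 4.95% lower among all tested genes. A share of higher genes near the first, as in the flavonoid, iron and nitrate lists, is no result about rises in the list. In the clock list 9 of 18 genes were higher and 1 lower (6 and 1 after quantile normalization), with *LNK1* at 0.88 and *FKF1*, a blue light receptor of the flowering pathway, at −0.85. Of 9 phosphate starvation genes 3 were lower and none higher (6 and 0 after quantile normalization), and *SPX1*, a sensor of phosphate status, had 10.5 and 12.6 TPM in WL+FR against 29.4 and 28.0 TPM in WL (−1.25). Of 16 iron genes 2 were higher and 3 lower, and *F6'H1*, needed to secrete iron-mobilizing coumarins, had the largest rise at 1.19. Of 18 flavonoid genes 3 were higher and none lower (2 and 2 after quantile normalization), led by *LDOX* (1.33), which was weak, with 3.84 and 5.14 TPM in WL+FR against 0.902 and 1.48 TPM in WL. Of 11 genes of starvation and senescence 5 were higher and 1 lower. *NAP* (0.96) and *ORE1* (1.02), NAC factors of leaf senescence, were higher, although *ASN1* of the same list fell. In the wax list 4 of 11 genes were higher and 1 lower (2 and 1 after quantile normalization). *CER1*, an enzyme of wax alkane formation, was lower (−1.18), while *KCS1* (0.66) and *CER2* (0.51), of fatty acid elongation, were higher. Of 8 nitrate genes 1 was higher and 3 lower, with *NRT1.1*, a nitrate transporter, at 0.54 and *NIR1*, nitrite reductase, at −0.38.

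Marker genes of cell types were read beside these results, against 15.1% higher and 4.95% lower among all tested genes. Of 6 root endodermis genes 5 were higher, the Casparian strip genes *CASP1* to *CASP5*, while *SCR* did not pass (log2 fold change 0.05). The 6 genes had a summed level of 194 and 187 TPM in WL+FR against 119 and 137 TPM in WL. None of the 6 root hair genes passed (32.7 and 24.7 TPM in WL+FR, 27.4 and 33.6 TPM in WL). Both lists were detected in all libraries, so RNA from roots was part of the samples. In the stomatal lineage 4 of 7 tested genes were lower and 1 higher (4 and 0 after quantile normalization): *EPF2*, a peptide that limits entry into the lineage, had 0.938 and 3.58 TPM in WL+FR against 6.53 and 8.05 TPM in WL (−1.47, adjusted p = 0.0073), and *SPCH*, which starts it, fell by 0.48 (adjusted p = 0.043). Of 7 shoot meristem genes 5 were tested, and 3 were higher and none lower, with and without quantile normalization. *KNAT1* had 35.9 and 34.6 TPM in WL+FR against 15.8 and 12.9 TPM in WL (1.24, adjusted p = 1.79e-06), and *STM* (0.98, adjusted p = 0.021) and *KNAT6* (0.69, adjusted p = 0.012) passed too, while *KNAT2* (0.58, adjusted p = 0.13) and *CLV1* (−0.01, adjusted p = 0.96) did not. The stem cell markers *WUS* and *CLV3* were not tested. Of 6 phloem genes 3 were higher (1 after quantile normalization), with *SUC2*, the sucrose loader, at 0.46. Of 6 mesophyll genes, which are antenna, Rubisco and Calvin cycle genes, 3 were higher and 1 lower (4 and 0 after quantile normalization), and the single trichome gene tested did not pass. Of 32 cell division genes none was higher and 2 were lower, *CYCA2-3* (−0.63) and *CYCD3;2* (−0.42). Their share of lower genes lay near that of all tested genes and is no result about the list. Whether shares of cell types took part in the changes of xylem, growth or photosynthesis genes was not tested.

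The same light contrast in *rev-5* and in the libraries labelled *wox4* shares no library with the Col-0 contrast. In the paper, WL+FR seedlings were moved to a compartment with added far-red light. Light and compartment therefore cannot be told apart in any genotype. At the narrower threshold 165 genes were higher (0.878%) and 43 lower (0.229%) in *rev-5*, and 260 higher (1.38%) and 58 lower (0.309%) in the libraries labelled *wox4*. Of the 295 genes raised in Col-0, 120 (40.7%) were also called higher in *rev-5* and 178 (60.3%) in the libraries labelled *wox4*, and 289 and 287 had the same sign. Of the 59 lowered genes, 24 (40.7%) and 33 (55.9%) were called lower, and 56 and 59 had the same sign. The share of all tested genes with the same sign is not given, so the sign counts have no background. *PIL1* rose by 3.49 in *rev-5* and 3.81 in the libraries labelled *wox4*, *HFR1* by 2.81 and 3.16, and *ATHB2* by 1.82 and 1.98, while *RD29A* fell by 1.67 in *rev-5* and by 1.89 in the libraries labelled *wox4*. The genes were chosen for a large change in Col-0, so that a smaller median change elsewhere (0.92 in *rev-5* and 1.11 in the libraries labelled *wox4*, 1.27 in Col-0 for the raised genes) is not read as a weaker response. The difference of responses was tested directly. It passed an adjusted p under 0.05 for 75 genes in *rev-5* (0.399%) and 7 in the libraries labelled *wox4* (0.0373%), among them 15 raised and 4 lowered genes of Col-0 in *rev-5* and none in the libraries labelled *wox4*.

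**Figure D5:**
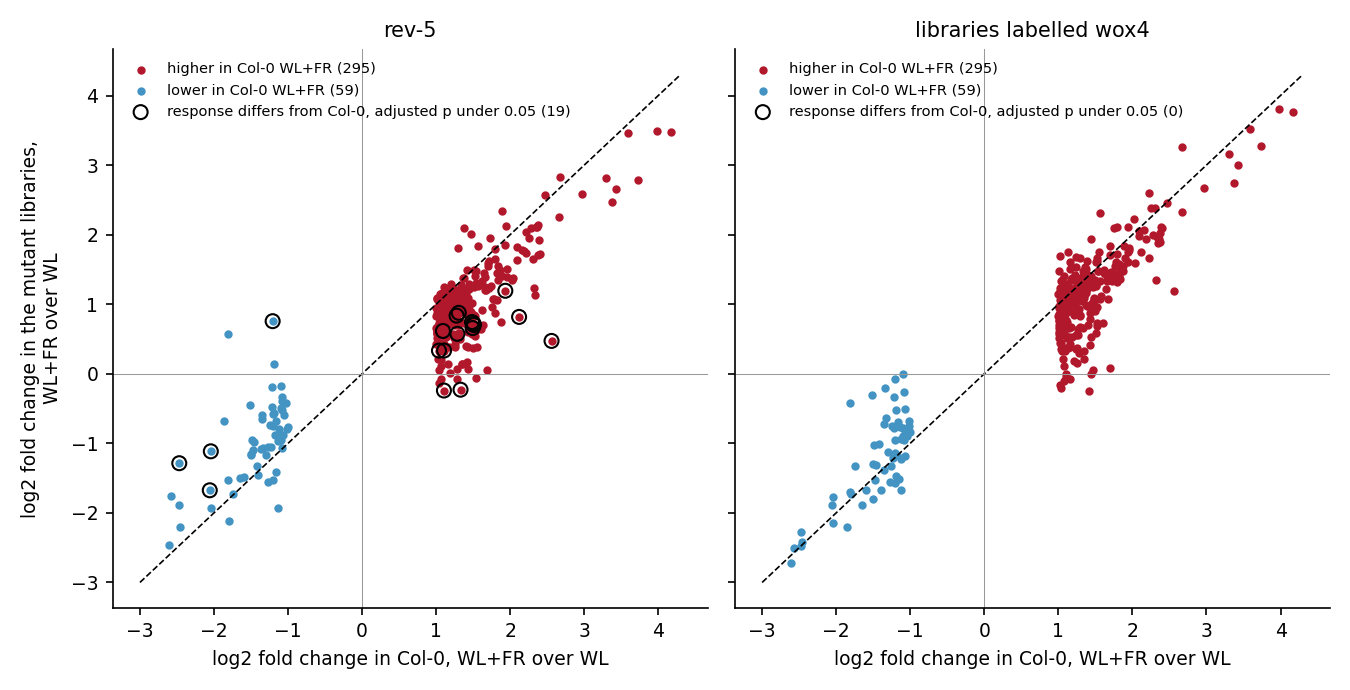
Log2 fold change of WL+FR over WL in *rev-5* (left) and in the libraries labelled *wox4* (right) against that in Col-0, for the 295 genes raised (red) and the 59 lowered (blue) in Col-0, with the dashed line of equal change. Black rings mark the 19 genes whose response in *rev-5* differed from that in Col-0 at an adjusted p under 0.05, and none carries a ring on the right.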

How the data were processed

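Seedling RNA was extracted, per the labels, with the Sigma Spectrum Plant Total RNA kit (the paper's methods name a EURx GeneMATRIX kit for expression analysis), and sequenced from TruSeq libraries. The authors deposited, for every gene, FPKM and its confidence bounds. The paper names HISAT2 and TAIR10, and the submitters' processing notes name FastQC, Bowtie2 and Cufflinks. The counting of strand is not given in the sources used here. Of 32824 listed genes, 32508 have the same start and end in TAIR10.1, from which symbols and sequences were taken.

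FPKM was rescaled to TPM in each library. Log2(TPM + 1) of the 18789 genes was modelled with limma 3.58.1 under R 4.3.3, with 6 group means over the 12 libraries and eBayes with a trend. Benjamini-Hochberg adjustment ran over all tested genes, and all fold changes are log2 on the TPM + 1 scale, which understates changes of weak genes. The fit was first tested on simulated data. Python 3.11.15 with pandas 2.3.3 and matplotlib 3.10.9 was used for tables and plots. Depth was estimated from the bounds. Groups and replicates were read from the labels.

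The 34 gene lists, 7 marker lists and the members were chosen with earlier results of these data known. Named are the 12 protein-coding genes with the largest rise and the 12 with the largest fall whose groups do not overlap, up to 4 leading members of each list (all where 5 or fewer passed), and genes the study names for shade. *LHB1B1*, *LHB1B2*, *CAB3*, *SAUR71*, *CBF2*, *CBF3*, *PORC*, *HEMA1* and *GUN5* were named after their values were seen. Other genes named outside these rules include *PIF1*, *PIF5*, *KNAT2*, *CLV1*, *CBF1*, *PR5* and *ICS1*. Alternatives were a pseudocount of 0.1, genes at 0 kept, no minimum mean, FPKM, quantile normalization, no trend, Col-0 libraries alone, other thresholds and each Col-0 library left out. Read counts were not used here.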

Additional observations from a re-analysis of the deposited data

Results flagged for a closer look

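The response of single genes differed between genotypes by a direct test of the difference (limma, adjusted p under 0.05, log2 scale, mutant response minus Col-0 response). In *rev-5* it was −2.09 for *PIP2* (AT4G37290), 1.18 for *TGG2*, 0.38 for *RD29A*, 0.93 for *ASN1*, −0.71 for *BBX25*, −0.38 for *LHCB2.1*, −0.37 for *LHCB2.4*, 0.3 for *CP12-2*, −1.56 for *LDOX*, −0.74 for *EXPA4*, 0.45 for *TGG1*, −0.39 for *KCS1*, −2.37 for *IRT1*, −0.69 for *FER1* and −0.44 for *CAB2*. In the libraries labelled *wox4* it was −0.33 for *LHCB2.1*, −0.39 for *LHCB2.4*, −0.63 for *FER1* and −0.3 for *CAB2*. The direction turned for *IRT1*, the root iron transporter, which had a log2 fold change of −1.72 in *rev-5* (adjusted p = 1.7e-05) and 0.65 in Col-0 (adjusted p = 0.013). *LDOX* rose in Col-0 (1.33) and did not pass in *rev-5* (−0.23, adjusted p = 0.50). These calls depended on the fit. Against 75 genes in *rev-5* and 7 in the libraries labelled *wox4*, limma without trend called none. Fewer genes were called for both when any one Col-0 library was left out, and whether they were the same genes is not given.

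Outside the tested genes, 10 were listed at 0 in both Col-0 WL libraries but had at least 10 TPM in both WL+FR libraries, and 13 showed the reverse. Of the 10 genes, *AT5G02760*, a protein phosphatase gene, had 50.5 and 49.1 TPM in WL+FR. Among the genes listed at 0 in WL+FR was *PAM68*, with 75.2 and 84.9 TPM in WL. In the libraries labelled *wox4* the replicates of both genes disagreed. There, *PAM68* had 0 and 62.2 TPM in WL+FR, and *AT5G02760* had 0 and 21.2 TPM in WL. In *rev-5*, *PAM68* had 67.3 and 57.6 TPM in WL+FR, and *AT5G02760* had 19.3 and 21.4 TPM in WL. Both genes overlap other listed genes. No fold change is given for genes listed at 0, and whether these values are failed estimates was not tested.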

How the results depend on the processing

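The 354 genes past the narrower threshold became 2239 without the fold change, and 305 to 327 when a Col-0 library was left out. At the wider threshold quantile normalization gave 1718 higher and 1607 lower genes in place of 2839 and 930. With a Col-0 library left out, the lone library of its group was assumed to vary like the other groups, and the fit gave 1968 to 2134 higher and 570 to 834 lower genes, the lowest count of lower genes without WL replicate 1 and the next, 612, without WL+FR replicate 3. The 75 differing responses of *rev-5* became 0 in limma without trend and 26 to 59 when a library was left out (26, 48 and 31 without WL replicate 1, WL replicate 2 and WL+FR replicate 3). The 7 of the libraries labelled *wox4* became 21 with genes at 0 kept, 3 with quantile normalization, 0 without trend, and 0 to 1 when a library was left out. Of the raised genes 169 of 295, and of the lowered genes 29 of 59, passed under every left-out library. *PHYB* fell under the fold threshold with FPKM (0.99), quantile normalization (0.89) and without WL replicate 2 (0.999), and *AT4G18372* lost its call with genes at 0 kept, without trend and without any one library (−1.88 to −1.74). Quantile normalization lowered the median of all genes by 0.109 but raised that of the antenna list, to 0.13 from 0.02, and of the photosystem list, to −0.12 from −0.18. No paired analysis was possible because the replicate numbers are not shared between groups. The causes of these shifts were not tested. Weak genes are limited by depth, since *PIL1* and *FT* in WL rested on 1 fragment or fewer in one library.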
